A study of Homo sapiens with 8 samples.

Results

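The genes described here encode the machinery that starts transcription by RNA polymerase II. They were all RefSeq protein-coding genes whose symbols begin with POLR2, MED and a digit, TAF and a digit, or GTF2, together with TBP. The rule, which uses symbols alone, gave 102 genes of 20037. GTF2H2C_2 was set aside because the annotation table places it far from its copies GTF2H2 and GTF2H2C, a position that could not be checked, which left 101 genes. The RBBP4 region at that position, with 158 reads in the knockdown library and 15 in the control library, is not counted. These were 15 POLR2, 30 MED, 37 TAF and 18 GTF2 genes and TBP. A member was given each listed region that overlapped its span extended by 3000 bp on both sides.

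Chromatin came from the small cell lung cancer line NCI-H69, an established human line, so every value is from 1 source of cells. In the knockdown arm the cells had been transfected with siRNA against CSNK2B, which encodes the regulatory beta subunit of casein kinase 2, and in the control arm with non-targeting siRNA. Both arms received the same transfection reagent, were harvested 48 h later and were fixed with 1% formaldehyde for 10 min. Each arm had 1 library immunoprecipitated for RBBP4 and 1 for P300, each with 1 input library that is not analysed here, 8 libraries in all. RBBP4 is a histone-binding protein found in deacetylase, Polycomb and nucleosome assembly complexes, and P300 is a histone acetyltransferase and coactivator.

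With 1 library per antibody and arm no difference had a replicate check, and the conditions could not be tested against each other. The deposited tables list only regions whose p in the authors' deposited table lay below 0.05, 35154 for RBBP4 and 20496 for P300. A gene with no listed region is therefore not shown to be without binding or without change. The total reads behind the RPKM scale are not stated and were inferred from the smallest steps of the values. They came to 1207945 RBBP4 reads in the knockdown library and 833181 in the control library. For P300 they came to 946392 and 1092789 in the same order. The labels give 1 batch per antibody, so the antibodies are described separately. Neither the level of CSNK2B nor markers of the cell type can be read from these tables.

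RNA polymerase II makes messenger RNA but cannot find a gene start alone. TFIID, built of TBP and the TAF proteins, recognises the core promoter. TFIIA and TFIIB then join, TFIIF brings the polymerase, and TFIIE and TFIIH open the DNA. Mediator, with head, middle, tail and kinase modules, carries signals from activators bound at enhancers to the polymerase.

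RBBP4 was higher after CSNK2B knockdown in nearly all listed regions at these genes. The 101 genes held 92 listed RBBP4 regions, at 53 of them. Of these regions 88 were higher and 4 lower in the knockdown library. At least 2-fold higher, on the ratio of RPKM + 1, were 86 of the 92, against 64.9% of all listed regions and 73.1% of those in the extended span of any protein-coding gene. At least 2-fold lower were 4 of the 92, against 31.2% of all listed regions and 22.7% of those in gene spans.

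Counted by gene, 51 of 101 members (50.5%) had a region at least 2-fold higher, against 45.4% of protein-coding genes. The member share was thus close to the share of all genes. The 101 members include 22 near-identical copies, where reads may be placed at the wrong copy. Of these the 13 TAF11-like copies had no listed region, and the share of members without the copies was not computed. A region at least 2-fold lower was listed at 4 of 101 members, against 14.8% of genes. By the adjusted p in the authors' deposited table, 45 members held a higher region under 0.05, against 38.3% of genes, and 3 members held a lower one, against 5.6% of genes. Those p-values compare 1 library with 1 library.

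Of the 92 regions 40 lay within 1000 bp of a RefSeq start. Another 24 higher and 4 lower regions lay inside genes, farther than 1000 bp from a start or, with no start in the table, from a gene end. Of 80 members with a RefSeq start in the table used, 37 (46.2%) had a region at least 2-fold higher within 1000 bp of it, against 32.6% of 15843 genes. None of the 80 had one at least 2-fold lower there, against 0.278% of genes. The 80 include the 13 TAF11-like copies. All 40 listed member regions at a start were higher, as were 5280 of the 5323 listed regions at any start (99.2%), so nothing about the members is read from this direction. The 40 regions held 10 to 73 reads in the knockdown library, with a median of 19.5, and 0 to 21 in the control library, with a median of 2. Their median fold was 4.83.

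Folds of single regions below are reads recovered from RPKM and scaled to the inferred totals, with a 95% exact binomial interval that covers counting error only. Where the control or the knockdown library held 0 reads, a floor of 3 reads gives the fold as a bound, which exceeds the low end of that interval. The words "at least" before such a fold refer to this floor and not to the interval. MED28, for example, is given below as at least 2.30-fold higher, and its interval begins at 1.55. Of the 88 higher regions 61 had an interval wholly above 1, and all 4 lower regions had one wholly below 1. Every listed region already had an authors' p below 0.05. For RBBP4 the authors' scaling differs from this one by 0.58 (log2, authors' value minus this one). A higher region can thus be listed and still have an interval that includes 1, so these counts are not compared between directions.

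**Figure D1:**
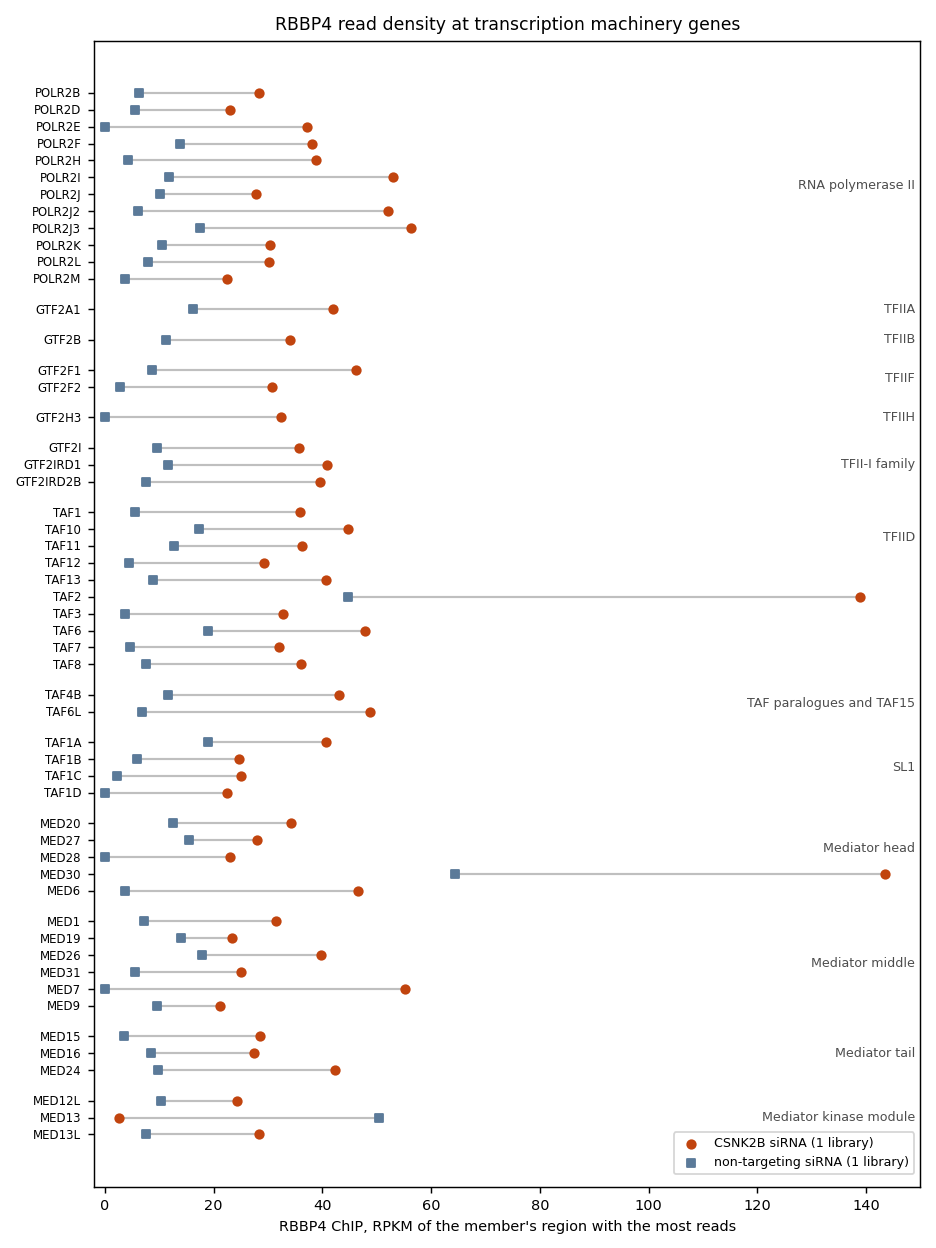
RBBP4 read density (RPKM, x axis) at each member with a listed region, for the region with the most reads; red circles are the knockdown library and blue squares the control library, 1 library each, and members are grouped by subcomplex. The knockdown value lies to the right for every member shown except MED13, and TAF2 and MED30, inside a segment of high read density, stand apart from the rest.

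Among the polymerase genes, 12 of 15 had a region at least 2-fold higher, against 45.4% of all protein-coding genes. POLR2B, the second-largest subunit that forms the catalytic cleft with POLR2A, had 65 reads in the knockdown library and 10 in the control library over its start, a 4.48-fold difference (2.29 to 9.79). That region also covers the start of the neighbouring NOA1. POLR2E, a subunit shared with RNA polymerases I and III, had 21 reads in the knockdown library and 0 in the control library, at least 4.83-fold higher. The other shared subunits also had higher regions. POLR2H had 27 and 21 reads in the knockdown library at 2 regions, against 2 and 2 in the control library. The region with 21 reads also lay within 1000 bp of the start of CLCN2. POLR2L had 56 reads against 10 in the control library in a region 1224 bp beyond its start. A region nearer to that start had 12 against 2, with an interval that included 1 (0.921 to 38.1). Both POLR2L regions also lay within 1000 bp of the start of TSPAN4. At POLR2K the knockdown library held 21 reads and the control library 5, and at the start of POLR2F 16 and 1. That POLR2F region also lay within 1000 bp of the start of C22orf23.

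POLR2I, a small subunit that aids start site choice and proofreading in yeast, had 39 reads in the knockdown library against 6 in the control library, a 4.48-fold difference (1.88 to 12.96). The POLR2I region also lay within 1000 bp of the start of TBCB. POLR2D, which forms the polymerase stalk with POLR2G, had 12 reads in the knockdown library and 2 in the control library, and the interval of that fold included 1 (0.921 to 38.1). POLR2M, a polymerase-associated protein rather than a core subunit, had 18 reads against 2 in the control library. POLR2J2 and POLR2J3 had 37 and 51 reads in the knockdown library against 3 and 11 in the control library. They are near-identical copies of POLR2J, so reads may have been placed at the wrong copy. No region was listed at POLR2A, the catalytic subunit, nor at POLR2C and POLR2G.

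The general transcription factor genes held the region with the largest RBBP4 fold among member regions with reads in both libraries. GTF2A1, the large subunit of TFIIA, which steadies TBP on DNA, had 35 reads in the knockdown library and 1 in the control library over its start. That is a 24.1-fold difference, with an interval from 4.06 to 980 that the single control read leaves wide. A second GTF2A1 region, 1012 bp from the start, had 30 reads against 8 in the control library. GTF2B, the single TFIIB protein, which sets the polymerase at the start, had 22 reads in the knockdown library and 5 in the control library, a 3.03-fold difference (1.12 to 10.3).

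Both TFIIF genes had a higher start region. GTF2F1 had 23 reads in the knockdown library against 3 in the control library, and GTF2F2 had 16 against 1. In TFIIH, which holds the helicases and kinase of initiation, 1 of 6 genes had a listed region. That gene was GTF2H3, with 12 reads in the knockdown library and 0 in the control library, at least 2.76-fold higher, in a region shared with the start of EIF2B1. Neither TFIIE gene had one. Over all protein-coding genes 45.4% had a region at least 2-fold higher.

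The TFII-I family encodes signal-responsive factors that bind initiator and enhancer DNA. A region at least 2-fold higher was listed at 3 of its 4 genes, against 45.4% of all protein-coding genes. The family had 11 regions, all higher, against 68.8% of all listed RBBP4 regions. GTF2IRD1 alone held 7, the most of any member. Its start region had 51 reads in the knockdown library and 10 in the control library, a 3.52-fold difference (1.77 to 7.77). The 6 inside the gene had 10 to 38 reads against 1 to 9, and only those with 38 and 31 reads had an interval wholly above 1. GTF2I had 59 reads against 11 in the control library at its region with the most reads. GTF2I and GTF2IRD2B have near-identical copies, so their reads may be shared with those.

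In TFIID 10 of 14 genes had a region at least 2-fold higher, against 45.4% of all protein-coding genes. TAF6, which pairs with TAF9 through a histone fold, had 73 reads in the knockdown library and 20 in the control library, a 2.52-fold difference (1.52 to 4.36), at a start shared with CNPY4. TAF12, the histone-fold partner of TAF4, had 38 reads against 4 in the control library just outside its span, and 13 against 0 over a start within it. TAF11 and TAF13, which pair with each other, had start regions with 33 and 20 reads in the knockdown library against 8 and 3 in the control library. The TAF11 region also lay within 1000 bp of the start of ANKS1A. TAF3, a reader of an active-promoter histone mark, had 13 reads against 1, and TAF8, which bridges TAF2 and TAF10, had 14 against 2. TAF7, which holds TAF1 in check, had 10 against 1, with an interval that included 1 (0.981 to 299).

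Some of these regions belong at least as much to a neighbour. TAF1, the scaffold of TFIID, had 1 RBBP4 region, with 19 reads against 2 in the control library, 2290 bp from the gene and at the start of OGT. TAF10 had 1, with 15 reads against 4, at the starts of ILK and RRP8, and its interval included 1 (0.824 to 10.7). TAF2, which contacts the initiator element, had 99 reads in the knockdown library against 22 in the control library, a 3.10-fold difference (1.94 to 5.18). It lies in a segment on the long arm of chromosome 8 where the lower library had a median of 71.8 reads per kb, against 6.62 elsewhere. The TAF2 region had 37.3 reads per kb in its lower library, whereas member regions outside the segment had 0 to 15.8. What this density contributes to the fold was not tested. No region was listed at TBP, TAF4, TAF5 or TAF9.

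The 4 TAF genes of SL1, the factor that directs RNA polymerase I to ribosomal RNA genes, all had a higher start region. A region at least 2-fold higher within 1000 bp of a start was listed at 32.6% of all genes with a start. TAF1D had 21 reads in the knockdown library and 0 in the control library, at least 4.83-fold higher. TAF1B had 30 reads against 5, TAF1C 16 against 1 and TAF1A 28 against 9. Of the 20 TAF paralogues, 2 had a region at least 2-fold higher, against 45.4% of all protein-coding genes. TAF6L, the TAF6 relative found in SAGA, had 31 reads in the knockdown library against 3 in the control library, and TAF4B, a tissue-restricted relative of TAF4, had 43 against 8 inside the gene. The 13 TAF11-like copies, which make up most of that list and are short near-identical genes, had no listed region.

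Mediator had a region at least 2-fold higher at 15 of 30 genes (50%), close to the 45.4% of all protein-coding genes. In the head, the count was 5 of 11 (45.5%). MED6, a conserved head subunit near the polymerase, had 18 reads in the knockdown library and 1 in the control library, a 12.4-fold difference (1.96 to 517). MED27 had 6 regions along its length, of which that at the start had 25 reads against 3 in the control library. MED28 had 10 reads against 0, at least 2.30-fold higher. MED20 had 16 reads against 4 at a start shared with BYSL, with an interval that included 1 (0.890 to 11.3). MED30 had 139 reads in the knockdown library against 43 in the control library, a 2.23-fold difference (1.57 to 3.22). Like TAF2 it lies in the segment of high density, with 53.6 reads per kb in its lower library.

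In the middle module 5 of 9 genes (55.6%) had a region at least 2-fold higher, against 45.4% of all protein-coding genes. MED7, which forms a hinge with MED21 in yeast, had 21 reads in the knockdown library and 0 in the control library, at least 4.83-fold higher. MED26, which recruits elongation factors, had 68 reads over its start in the knockdown library against 21 in the control library, a 2.23-fold difference (1.35 to 3.84). A second MED26 region, beyond the other end and at the start of SLC35E1, had 28 reads against 2. MED31 had 16 reads against 1, and MED9 had 19 against 6 with an interval that included 1 (0.839 to 6.68). MED19 had 24 reads against 10, 1.66-fold higher with an interval that included 1 (0.763 to 3.88). The MED19 region also lay within 1000 bp of the start of TMX2. MED1, the contact of nuclear receptors, had 1 region, with 19 reads against 3, 2186 bp from the gene at the start of FBXL20.

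Tail subunits receive activators. In the tail 3 of 6 genes had a region at least 2-fold higher, against 45.4% of all protein-coding genes. MED15 had 2 regions at its start with 12 and 11 reads in the knockdown library against 1 and 1 in the control library. MED24 had 19 reads against 3, and MED16 had 19 against 4 at its start. In the kinase module, which can hold Mediator off the polymerase, MED13L had 6 regions and MED12L had 5. All were higher, as were 68.8% of all listed RBBP4 regions. The knockdown library held 11 to 27 reads at MED13L against 1 to 6 in the control library, and 9 to 17 at MED12L against 1 to 5. By gene, 2 of the 4 kinase module genes had a region at least 2-fold higher, against the same 45.4%. At MED12L only the region with 12 reads against 1 had an interval wholly above 1 (1.22 to 354). At MED13L the region with 11 reads against 2 had an interval that included 1 (0.828 to 35.2).

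The 4 lower RBBP4 regions all lay inside genes and held few reads. MED13, the link between the kinase module and core Mediator, had 1 read in the knockdown library and 13 in the control library, 18.8-fold lower (2.83 to 801), and no higher region. At MED27 the counts were 3 and 15, at TAF1B 3 and 14, and at MED15 0 and 9. The last 3 genes also had a higher region at their starts. The lower regions lay 11976 to 65764 bp from the nearer gene end.

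**Figure D2:**
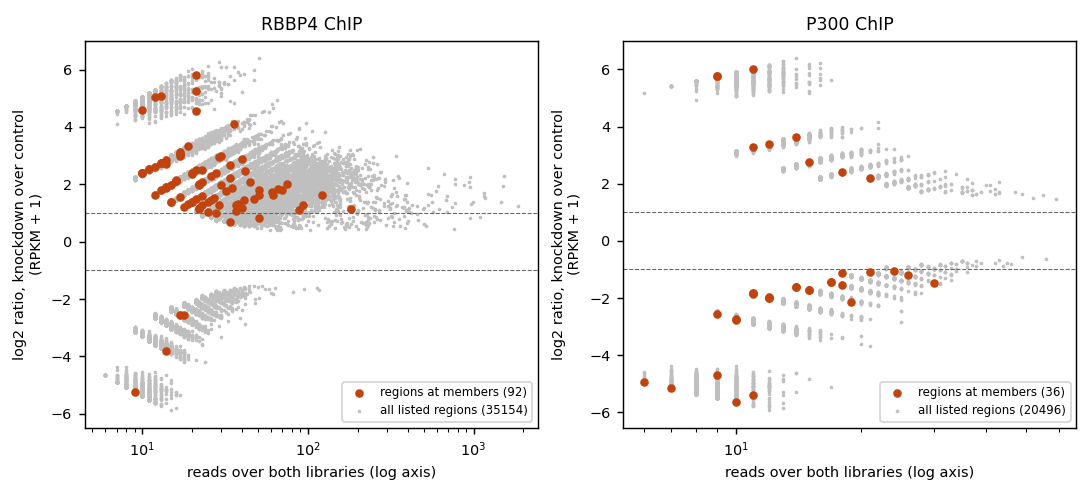
Log2 ratio of knockdown over control RPKM + 1 (y axis) against the reads of both libraries (log axis) for RBBP4 and P300; grey points are all listed regions, red points those at members, and dashed lines mark 2-fold. Member regions for RBBP4 lie almost wholly above 0 and hold 9 to 182 reads, and those for P300 lie on both sides and hold 6 to 30.

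Because a region over a start can cover both of a pair of adjacent genes, 31 of the 92 RBBP4 regions also lay in the extended span of a gene outside the family, and 20 lay within 1000 bp of its start. Without such shared regions 30 members kept a region at least 2-fold higher, in place of 51. Gene length also bears on the counts. Among members under 20 kb, 25 of 55 (45.5%) had a region at least 2-fold higher, against 32.7% of all genes of that length. The 55 include the 13 TAF11-like copies, which had no listed region of either antibody. From 20 to 100 kb the count was 16 of 35 (45.7%), against 48.9%, and from 100 kb on 10 of 11 (90.9%), against 71.3%. Members with a lower region were 0 of 55, 2 of 35 and 2 of 11 in the same classes, against 2.88%, 14.8% and 46.8%. The median length was 18.5 kb for the members and 24.1 kb for all genes.

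**Figure D3:**
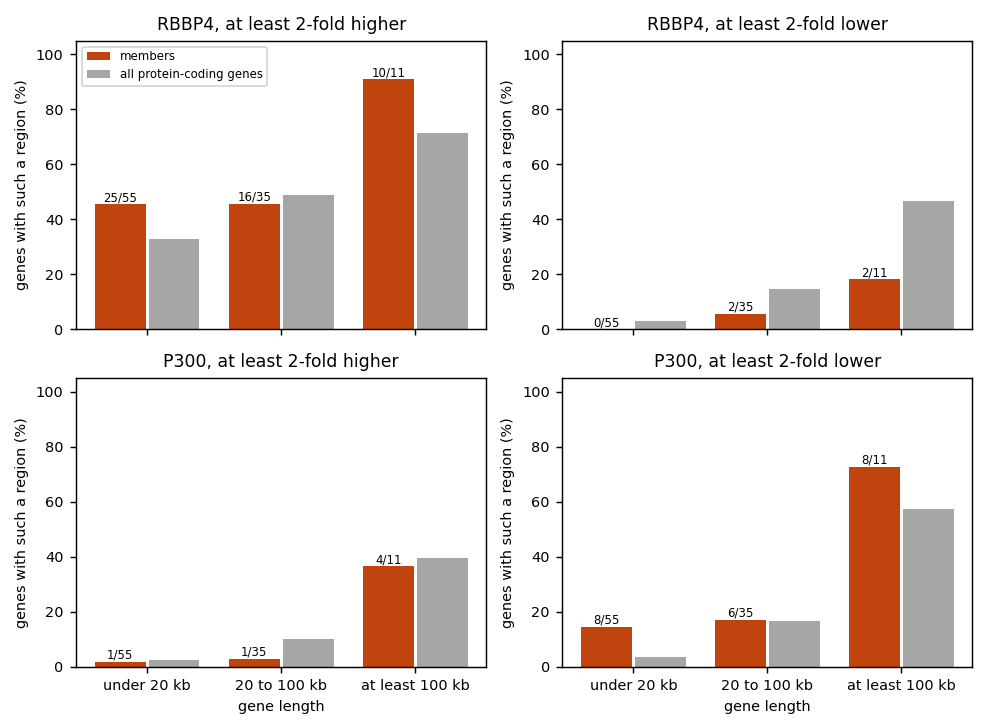
Percent of genes with a listed region at least 2-fold higher or lower after knockdown (y axis), by gene length (x axis), for RBBP4 and P300; red bars are members with their counts above, grey bars all protein-coding genes. Lower RBBP4 regions were at 0, 5.71 and 18.2% of members in the classes from short to long, against 2.88, 14.8 and 46.8% of all genes, and in the class under 20 kb lower P300 regions were at 14.5% of members against 3.47%; these differences were not tested.

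Sequences before 7 of the starts are given. The RBBP4 regions at these starts had the most reads over a start in their group, no control reads, or an overlapping P300 region. At POLR2M the P300 region overlapped the RBBP4 region and lay 227 bp from the start. Not every such start is given, since GTF2H3 and TAF12 also had a region over a start with no control reads. Each printed sequence is the 150 bases before the RefSeq start, 5′ to 3′ on the gene's strand, from RefSeq on GRCh38.p14. Capitals mark matches, on either strand, to any of the motifs searched. The SP and KLF factors were given by the letters GGGCGG and the factor NFY by CCAAT. The letters for NRF1 were TGCGCA, and the ETS family was given by CCGGAAGT. For YY1 the search used AAGATGG, for the E-box CACGTG, and for the TATA box the letters TATAAA. POLR2B lies at chr4:56978746-56978895 on the plus strand, POLR2E at chr19:1095376-1095525 on the minus strand and POLR2M at chr15:57706564-57706713 on the plus strand. GTF2IRD1 lies at chr7:74453756-74453905 on the plus strand and TAF6 at chr7:100119359-100119508 on the minus strand. TAF1D lies at chr11:93741496-93741645 on the minus strand and MED26 at chr19:16628205-16628354 on the minus strand.
POLR2B: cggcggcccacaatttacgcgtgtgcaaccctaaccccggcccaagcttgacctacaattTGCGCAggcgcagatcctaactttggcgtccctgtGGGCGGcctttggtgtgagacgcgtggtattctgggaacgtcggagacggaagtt
POLR2E: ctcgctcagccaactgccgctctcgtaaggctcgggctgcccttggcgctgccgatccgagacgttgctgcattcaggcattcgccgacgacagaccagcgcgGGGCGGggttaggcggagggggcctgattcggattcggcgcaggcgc
POLR2M: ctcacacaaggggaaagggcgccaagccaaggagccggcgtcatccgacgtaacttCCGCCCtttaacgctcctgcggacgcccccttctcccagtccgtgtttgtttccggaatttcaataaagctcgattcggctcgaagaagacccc
GTF2IRD1: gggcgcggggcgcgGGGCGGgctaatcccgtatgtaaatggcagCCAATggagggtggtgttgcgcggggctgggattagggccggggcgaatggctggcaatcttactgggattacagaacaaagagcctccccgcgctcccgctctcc
TAF6: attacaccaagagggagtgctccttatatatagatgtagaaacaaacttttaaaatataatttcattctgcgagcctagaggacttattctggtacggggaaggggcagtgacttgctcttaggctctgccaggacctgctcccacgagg
TAF1D: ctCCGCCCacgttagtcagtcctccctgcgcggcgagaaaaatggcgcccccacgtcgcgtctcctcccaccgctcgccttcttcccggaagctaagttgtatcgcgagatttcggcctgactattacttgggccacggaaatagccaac
MED26: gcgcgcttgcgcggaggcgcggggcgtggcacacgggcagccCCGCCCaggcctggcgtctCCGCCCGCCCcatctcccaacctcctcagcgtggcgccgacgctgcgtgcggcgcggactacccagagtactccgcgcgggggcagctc

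The SP/KLF letters occurred in 6 of these 7 stretches, 3 times in MED26, where neighbouring matches overlap, and TAF6 held none of the motifs. POLR2B also had the NRF1 letters 90 bases before its start, and GTF2IRD1 the NFY letters 106 bases before its start. In the full windows, from 250 bases before to 50 after a start, the ETS letters were in 20 of 94 member windows (21.3%), against 5.34% of 22199 windows of all genes. Among windows with a higher RBBP4 region within 1000 bp they were in 10 of 47 for members (21.3%) and in 9.16% for all genes. The NRF1 letters were in 18.1% of member windows against 9.88%, YY1 in 10.6% against 6.04% and the E-box in 11.7% against 8.34%. For SP/KLF the shares were 61.7% and 56.3%, for NFY 29.8% and 34.7%, and for the TATA box 7.45% and 9.47%. Among windows with a higher RBBP4 region the order turned for 3 of these motifs. There the YY1 letters were in 6.38% of member windows against 7.92% of all, SP/KLF in 59.6% against 71.1% and the TATA box in 10.6% against 5.03%. For NRF1 the shares there were 25.5% and 15.9%, for the E-box 8 of 47 windows and 10.8%, and for NFY 34.0% and 35.1%. Median GC content was 59.0% in member windows and 62.3% in all. Genes with several starts give several windows, and a match is a run of letters, not a bound site.

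P300 differed in both directions at these genes, mostly downwards, and in fewer reads. Of 101 members, 25 had a listed P300 region, 36 regions in all, of which 27 were lower and 9 higher in the knockdown library. All 36 passed 2-fold. Of the 36, 11 also lay in the extended span of a gene outside the family, and 3 lay within 1000 bp of its start. The 27 lower regions (75.0%) compare with 64.3% of all listed regions and 64.2% of those in gene spans, and the 9 higher ones with 34.7% and 34.8%. By gene, 22 of 101 members had a region at least 2-fold lower (21.8%), against 17.5% of genes, and 6 had one at least 2-fold higher, against 11.5% of genes. In the authors' deposited table the adjusted p of these regions lay between 0.260 and 0.293. The smallest over all listed P300 regions was also 0.260, so no region of any gene passed 0.05. The 27 lower regions had medians of 2 reads in the knockdown library and 11 in the control library, and 9 of them had an interval wholly below 1. All 9 higher regions had one wholly above 1. For P300 the authors' scaling differs from this one by -0.44 (log2, authors' value minus this one). These interval counts are thus not compared between directions.

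**Figure D4:**
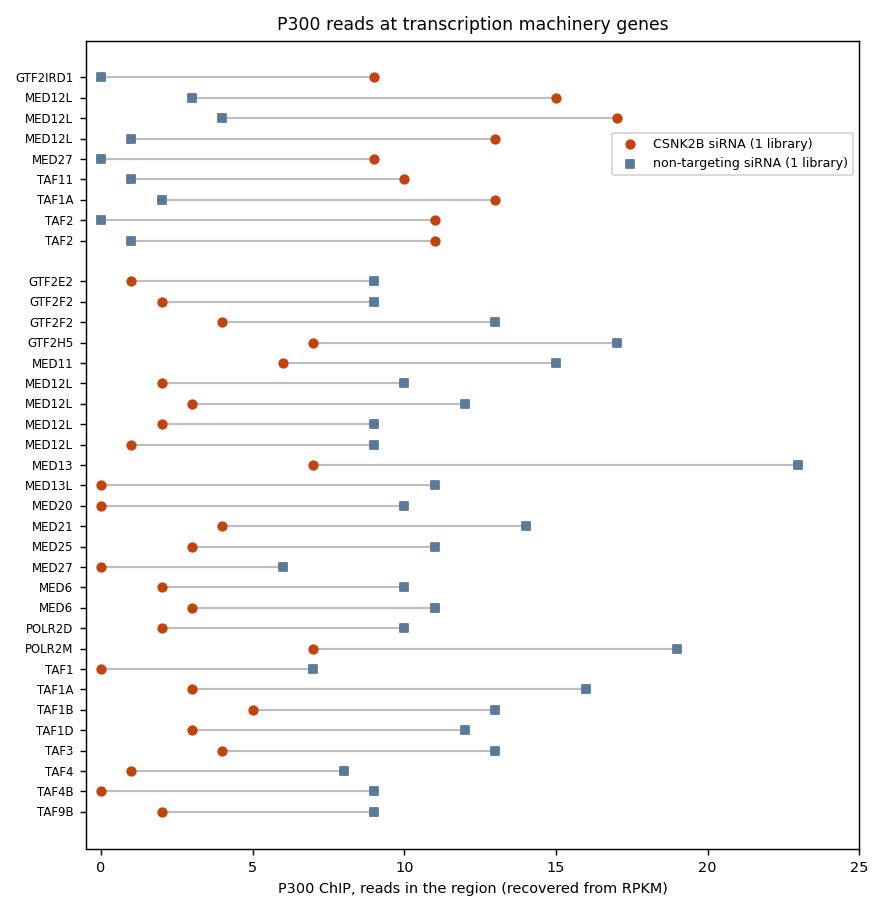
P300 reads (x axis) in every listed region at a member, higher regions above and lower regions below; red circles are the knockdown library and blue squares the control library, 1 library each, and a gene with several regions appears several times. No library exceeds 23 reads in any of these regions, and MED13 has the most, with 7 in the knockdown library and 23 in the control library.

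Near gene starts the P300 regions of members were lower. Within 1000 bp of a RefSeq start, 4 of 80 members had a region at least 2-fold lower, against 0.991% of genes, and 0 of 80 had one at least 2-fold higher, against 1.01%. Listed P300 regions at any start were split, 161 lower and 143 higher. POLR2M had 7 reads in the knockdown library and 19 in the control library. GTF2H5, a small TFIIH subunit that stabilises the complex in DNA repair, had 7 and 17. MED11, a head subunit that contacts TFIIH in yeast, had 6 and 15. TAF1D had 3 and 12. The GTF2H5 and TAF1D regions also lay within 1000 bp of the starts of SERAC1 and C11orf54. The interval of each of these 4 folds included 1.

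Regions at gene ends of MED13 and MED6, whose starts were not in the table used, were also lower. MED13 had 7 P300 reads in the knockdown library against 23 in the control library, 2.85-fold lower (1.18 to 7.85), 49 bp from the end of its span. MED6 had 3 reads against 11, with an interval that included 1.

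Away from starts, lower P300 regions were listed at polymerase, general factor, TAF and Mediator genes. The 3 TFIIA, 1 TFIIB and 4 TFII-I family genes had no lower P300 region, against 17.5% of all genes with one. So few genes allow no reading of that absence. In TFIIH the only lower region was that of GTF2H5, at its start. TAF1A, of SL1, had 3 reads in the knockdown library and 16 in the control library inside the gene, 4.62-fold lower (1.32 to 24.7). A second TAF1A region, 2186 bp upstream of its start, went the other way, with 13 reads against 2, 7.51-fold higher (1.70 to 68.5). MED13L had 0 reads in the knockdown library and 11 in the control library, at least 3.18-fold lower. MED20 had 0 against 10, TAF4B 0 against 9, TAF1 0 against 7 and MED27 0 against 6 in the flank. GTF2E2, of TFIIE, had 1 against 9, and TAF4, a TFIID core subunit, had 1 against 8. GTF2F2 had 2 lower regions, with 4 and 2 reads in the knockdown library against 13 and 9 in the control library. Single lower regions of 2 to 5 knockdown reads against 9 to 14 control reads lay at POLR2D, TAF1B, TAF3, TAF9B, MED21, the partner of MED7, and MED25, an activator contact in the tail.

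Higher P300 regions lay at 6 members. MED12L, the MED12 relative of the kinase module, had 7 P300 regions along its length, 3 higher and 4 lower. Of the higher ones, that with the largest fold had 13 reads in the knockdown library against 1 in the control library, 15.01-fold higher (2.25 to 638), and of the lower ones 1 had 1 read against 9. TAF2 had 11 reads against 0 and 11 against 1 in 2 regions. In the chromosome 8 segment around it the P300 density was 6.82 reads per kb in the lower library, against 5.92 elsewhere. TAF11 had 10 reads against 1, and GTF2IRD1 and MED27 each had 9 against 0, at least 3.46-fold higher.

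By length, 8 of 55 members under 20 kb (14.5%) had a lower P300 region, against 3.47% of genes of that length. From 20 to 100 kb the count was 6 of 35 (17.1%), against 16.5%, and from 100 kb on 8 of 11 (72.7%), against 57.3%. Higher P300 regions were at 1 of 55, 1 of 35 and 4 of 11 members, against 2.32%, 10.1% and 39.5%.

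Regions of both antibodies were listed at 18 members, and within 1000 bp of each other at 4. At POLR2M the overlapping regions had 18 RBBP4 reads in the knockdown library against 2 in the control library, and 7 P300 reads against 19. At TAF1D, also overlapping, RBBP4 had 21 against 0 and P300 3 against 12. At MED6, 165 bp apart, RBBP4 had 18 against 1 and P300 3 against 11. These 3 members thus had higher RBBP4 beside lower P300. At TAF11, 195 bp apart and upstream of the start, both were higher, with 9 reads against 1 for RBBP4 and 10 against 1 for P300. Both TAF11 regions also lay within 1000 bp of the start of ANKS1A, and the TAF1D P300 region within 1000 bp of that of C11orf54. Over all listed regions, 125 of 317 overlapping pairs (39.4%) had higher RBBP4 and lower P300, and 316 of 838 pairs within 1000 bp (37.7%) did.

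**Figure D5:**
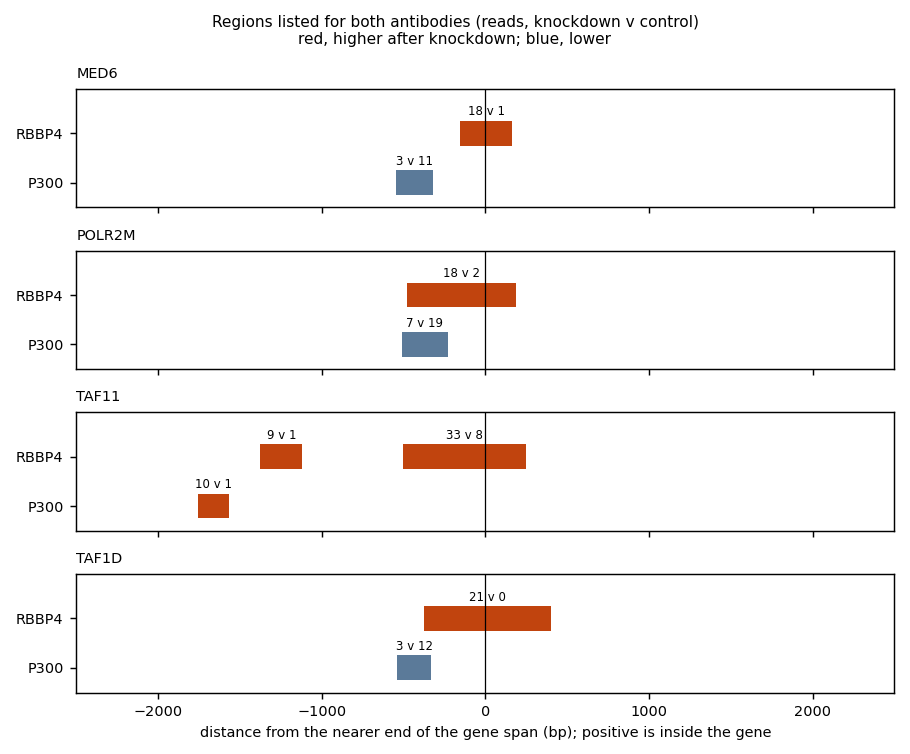
Position of RBBP4 and P300 regions around the nearer gene end (x axis, bp, positive inside the gene) at the 4 members where regions of both antibodies lie within 1000 bp; red is higher and blue lower after knockdown, and the labels give reads in the knockdown and control libraries. At MED6, POLR2M and TAF1D the RBBP4 region is higher and the P300 region lower, and at TAF11 both are higher.

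Partners and regulators of this machinery, with 18 subunits of RNA polymerases I and III, gave 59 comparison genes outside the symbol rule. A higher RBBP4 region was listed at 41 of them (69.5%) and a lower one at 8 (13.6%), both by the 2-fold measure, against 51 and 4 of the 101 members. Over all protein-coding genes the shares were 45.4% and 14.8%, so the lower share was close to that of all genes. Median gene length ran from 19.5 kb in the polymerase I and III list to 151 kb in the Mediator kinase partners. What length contributes to these counts was not tested. The SAGA partners, which share TAF proteins with TFIID, had a higher region at 11 of 14 genes, and the subunits of RNA polymerases I and III at 13 of 18. The TBP relatives and regulators had one at 5 of 5 and the Mediator kinase partners at 3 of 3. Polymerase II assembly and tail-modifying factors had one at 5 of 11, the elongation factor TFIIS at 2 of 3 and the TFIIH partners at 2 of 5. For P300, 12 of the 59 had a lower region (20.3%) and 9 a higher one (15.3%), against 17.5% and 11.5% of all genes.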

How the data were processed

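RBBP4 and P300 ChIP-seq of NCI-H69 cells was analysed from 2 tables deposited by the authors, 1 per antibody. The submitters' processing notes name Bowtie2 2.4.5 among the tools, with Trim Galore 0.6.7 and ChIPseeker 1.28.3, and also DiffBind 3.4.11 and MACS2 2.2.7.1, with the build GRCh38. Which tool made which column is not given in the sources used here. RPKM values, computed by the authors, are per region and immunoprecipitated library, per the file headers. Each region also carries the authors' log2 fold change, per the file headers. Deposited beside it are a p-value and its adjusted form, both computed by the authors per the file headers. Arms were read from column names alone (Sample and Control for P300, their initials for RBBP4), so a swapped pair would turn every direction for that antibody. Region names begin with an arm, and reads were higher in the arm named for 35151 of 35154 RBBP4 regions and for 20496 of 20496 P300 regions.

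Reads recovered as RPKM times width were whole, to a tolerance of 0.01, for 98.3% of RBBP4 and 99.4% of P300 regions. For the other 596 and 131 a width was sought that returned the authors' log2 fold change. Among the members such a width was found for 1 RBBP4 region each of GTF2IRD1, MED20, MED26 and TAF4B. Folds were scaled to the total reads behind RPKM, inferred from the smallest steps of the values. Against the authors' log2 fold change this scaling differs by 0.58 for RBBP4 and -0.44 for P300 (log2, authors' value minus this one), and no member region changed direction between them. The 2-fold measure was log2 of the ratio of RPKM + 1. Intervals are 95% exact binomial, and a library with 0 reads was set to 3.

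Genes and starts came from RefSeq (GRCh38.p14). Starts were in the table for 80 members, and the other 21 were judged by gene ends. Exons and introns were not used here. Named were every member with a P300 or a lower RBBP4 region, up to 5 per subcomplex by RBBP4 reads, the 5 with the largest ratios, and POLR2A, TBP, TAF1, MED1 and GTF2B, with a few others added after their values were seen. The members and lists were chosen with earlier results of these data known. Python 3.11.15, pandas 2.3.3, numpy 2.4.6, scipy 1.17.1 and matplotlib 3.10.9 were used.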

Additional observations from a re-analysis of the deposited data

How the results depend on the processing

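Alternatives covered the pseudocount, the fold, a minimum of reads, the distance that assigns a region, regions shared with other genes, near-identical copies, the chromosome 8 segment and the scaling. Of 76 alternative counts 60 lay within 1.5 times the reported count and 16 did not. The 86 RBBP4 regions at least 2-fold higher became 42 at a fold of 4 and 53 with at least 20 reads over both libraries. The 51 members with such a region became 30 without regions shared with an outside gene. The 4 lower RBBP4 regions became 0 with at least 20 reads, and the 4 members that hold them became 0 within 3000 bp and 0 within 1000 bp of a gene end. By the adjusted p in the authors' deposited table, the 3 members with a lower region under 0.05 became 0 under 0.01.

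For P300, the 27 lower regions became 10 at a fold of 4 and 4 with at least 20 reads, and the 9 higher ones became 1 with at least 20 reads. The 22 members with a lower region became 12 within 3000 bp and 8 within 1000 bp of a gene end, and the 6 with a higher region became 3 and 0. For P300, 0 members passed 0.05 by the adjusted p in the authors' deposited table, as did no region of any gene, and by its unadjusted p, which is under 0.05 for every listed region, 22 had a lower and 6 a higher one. The cause of these changes was not tested, except that a stricter fold, minimum or distance admits fewer regions by construction. With the scaling of the authors' log2 fold change, 91 of 92 RBBP4 and 36 of 36 P300 folds stayed within their intervals and 0 reversed. The exception was MED30, at 3.33-fold, the member region with the most reads (182). This scaling moves most folds by a similar factor. Most intervals are wide at these read counts, and they are open on 1 side where a library held 0 reads. Staying within them is therefore not a check of the folds. No paired analysis was possible because each antibody and arm had 1 library. Read counts limit these results: the median higher member region for RBBP4 held 22 reads over both libraries, and the median lower one for P300 held 12.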
